A study of Mus musculus with 15 samples.

Results

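The molecular motors of primary mouse neural stem cells were read on 108 of 22626 tested probe sets, which measure 56 of the 12393 genes with a symbol of their own on the array. A probe set is the group of short array probes that reports 1 transcript or several related ones. The members were chosen by gene name: every probe set with a single gene symbol starting in Kif or Kifc (kinesins, 28 genes), Dync or Dynl (cytoplasmic dynein subunits, 9 genes) or Myo and a number (unconventional myosins, 19 genes). They were divided into 48 large chains that carry the motor domain, 3 middle chains of dynein (intermediate and light intermediate chains) and 5 small light chains of dynein. The names were read without regard to the array values, but this family and its division by size were picked with the difference between polysomal and total RNA already known. The differences between those fractions are therefore a description, and no p-value of them is given for a gene or a class. Counts past a threshold are printed only beside the share of the array. Only the effect of CD95L-T4 is read as a test.

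Cultures came from female mice aged 6 weeks of strain C57/B16, grown as neurospheres, floating clusters of stem and progenitor cells. They were left as controls or stimulated with CD95L-T4, a trimerized form of the ligand of the CD95 (Fas) receptor, and RNA was taken after 48 hours. Total RNA was hybridized on 4 control and 4 CD95L-T4 arrays, and RNA bound to polysomes, the strings of ribosomes on an mRNA under translation, on 4 control and 3 CD95L-T4 arrays. All 4 groups share strain, sex, age and culture. The labels call the samples biological replicates but do not say whether they came from separate mice or cultures, so the p-values measure only the spread between these samples.

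Kinesins and cytoplasmic dynein move cargo along microtubules, most kinesins toward the plus end and dynein toward the minus end, and myosins move along actin filaments. In dividing progenitors, a set of mitotic kinesins builds the spindle and separates the daughter cells, while others carry vesicles, mitochondria and ciliary components. Cytoplasmic dynein is a complex in which a very large heavy chain does the walking, intermediate and light intermediate chains hold cargo and the dynactin complex, and small light chains bind at the tail.

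The percentile of a probe set's mean level among all probe sets is a rough guide to the labelled cell type, since probes differ in brightness. Of 7 measured stem cell and progenitor genes, Sox2, Nes, Vim and Fabp7 lay between the 93.1st and the 99.8th percentile, Slc1a3 at the 87.0th, Msi1 at the 58.0th and Prom1 at the 14.1st. Markers of microglia and endothelium did not pass the 35.6th percentile, and among neuronal and astrocytic markers Map2 reached the 78.3rd and S100b the 65.4th. Oligodendrocyte, ependymal and muscle markers stayed at or below the 42.3rd (Mbp), 40.8th (Foxj1) and 44.9th (Des). Array medians on the log2 scale ranged from 6.92 to 6.98 in total RNA and from 6.83 to 6.88 in polysomal RNA, without overlap. Arrays of 1 group correlated at 0.994 to 0.998 over all probe sets. Spiked bacterial polyA controls averaged 7.41 to 8.59 in total RNA and 8.18 to 9.86 in polysomal RNA, and the 3′ minus 5′ difference of the actin control was 0.28 to 0.57 in total and 0.59 to 1.03 in polysomal arrays. The fractions were also extracted by different methods and labelled as different molecules (total RNA and polyA RNA), so fraction and preparation cannot be told apart. In cultures of mixed cells, fewer cells of a type and less RNA per cell cannot be told apart either.

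On polysomes the dynein complex split by the size of its subunits. In control cultures the heavy chain and both well measured middle chains had lower values on polysomes than in total RNA, and all 5 light chains had higher values. The heavy chain Dync1h1, the motor itself, had array values of 10.48, 10.26, 10.35 and 10.27 in control total RNA and 8.5, 8.58, 8.36 and 8.55 in control polysomal RNA. In CD95L-T4 cultures it read 10.13, 10.57, 10.34 and 10.65 in total RNA and 8.89, 8.41 and 8.80 in polysomal RNA. Every polysomal array lay more than 1 log2 unit below every total array. The difference of polysomal minus total was −1.84 ± 0.12 (SE, log2), or 3.59-fold lower, in control cultures and −1.72 ± 0.13, or 3.30-fold lower, in CD95L-T4 cultures.

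The middle chain Dync1i2, an intermediate chain that binds dynactin, read 10.23, 10.13, 10.18 and 10.29 in control total RNA and 9.55, 9.38, 9.50 and 9.63 in control polysomal RNA. Its CD95L-T4 arrays read 10.31, 10.18, 10.06 and 10.10 in total and 9.64, 9.36 and 9.55 in polysomal RNA, again with no overlap between the fractions. The difference was −0.69 ± 0.08 in control and −0.65 ± 0.09 in CD95L-T4 cultures. Dync1li1, a light intermediate chain that links dynein to cargo adaptors, had a smaller difference of −0.31 ± 0.07 in control and −0.20 ± 0.08 in CD95L-T4 cultures. The other intermediate chain, Dync1i1, which is best known from neurons, was dim, with array values from 3.01 to 3.43, at the 6.2nd percentile. It ran the other way in control cultures, with a difference of 0.22 ± 0.07 and no overlap, and stood at −0.01 ± 0.08 in CD95L-T4 cultures.

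The light chain Dynll1, a small dimer that binds many proteins besides dynein, had the highest values of the dyneins. Control total arrays read 13.28, 13.25, 13.18 and 13.21 and control polysomal arrays 13.74, 13.68, 13.68 and 13.64. CD95L-T4 arrays read 13.12, 13.18, 12.86 and 12.81 in total and 13.59, 13.61 and 13.59 in polysomal RNA, so that the fractions did not overlap in either culture. The difference was 0.46 ± 0.08, or 1.37-fold higher, in control cultures and 0.60 ± 0.09 in CD95L-T4 cultures. Its close relative Dynll2 differed by more: 10.09, 10.08, 9.92 and 9.95 in control total RNA against 11.24, 11.29, 11.33 and 11.26 in control polysomal RNA, a difference of 1.27 ± 0.09 (2.41-fold). In CD95L-T4 cultures Dynll2 read 10.18, 10.04, 9.94 and 9.93 in total and 11.11, 11.43 and 11.08 in polysomal RNA, a difference of 1.18 ± 0.09.

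Dynlrb1, the roadblock light chain, read 11.48, 11.41, 11.40 and 11.43 in control total RNA and 12.49, 12.44, 12.50 and 12.45 in control polysomal RNA. The groups lay 1.04 ± 0.08 apart (2.06-fold), and in CD95L-T4 cultures 1.02 ± 0.09, with 11.13, 11.41, 11.20 and 11.27 against 12.07, 12.42 and 12.32. The Tctex-type light chain Dynlt3 read 10.24, 10.60, 10.43 and 10.56 in control total and 11.81, 11.71, 11.45 and 11.43 in control polysomal RNA, a difference of 1.14 ± 0.13 (2.21-fold). Its CD95L-T4 arrays read 10.56, 10.26, 10.51 and 10.40 in total and 11.21, 11.84 and 11.35 in polysomal RNA.

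The widest gap of the light chains was that of Dynlt1f, another Tctex-type chain, with 9.37, 9.26, 9.29 and 9.33 in control total and 10.97, 10.84, 10.81 and 10.79 in control polysomal RNA. This is 1.54 ± 0.11, or 2.91-fold higher, and 1.28 ± 0.12 in CD95L-T4 cultures, where total arrays read 9.25, 9.28, 9.41 and 9.36 and polysomal arrays 10.40, 11.03 and 10.38. Dynlt1f belongs to a group of near-identical gene copies, and its probe set is of a type whose probes can bind related transcripts, so which copy it reports is uncertain. On the probe sets shown for Dynll2, Dynlt1f and Dynlt3, the second CD95L-T4 polysomal array stood above the control polysomal arrays. The first and the third stood below them. The other probe sets of Dynll2 and Dynlt3 did not show all of this. For Dynll2 the third array read highest there, at 11.42. For Dynlt3 the second array, at 10.64 and 11.64, lay within the range of the control arrays. The first and the third Dynlt3 arrays again stood below them, at 10.04 and 9.81 on one probe set and 11.2 and 11.25 on the other. The second array also had the highest mean of the spiked polyA controls, 9.86, against 8.18 and 8.32 in the first and the third. The part of this in the result was not tested.

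**Figure D1:**
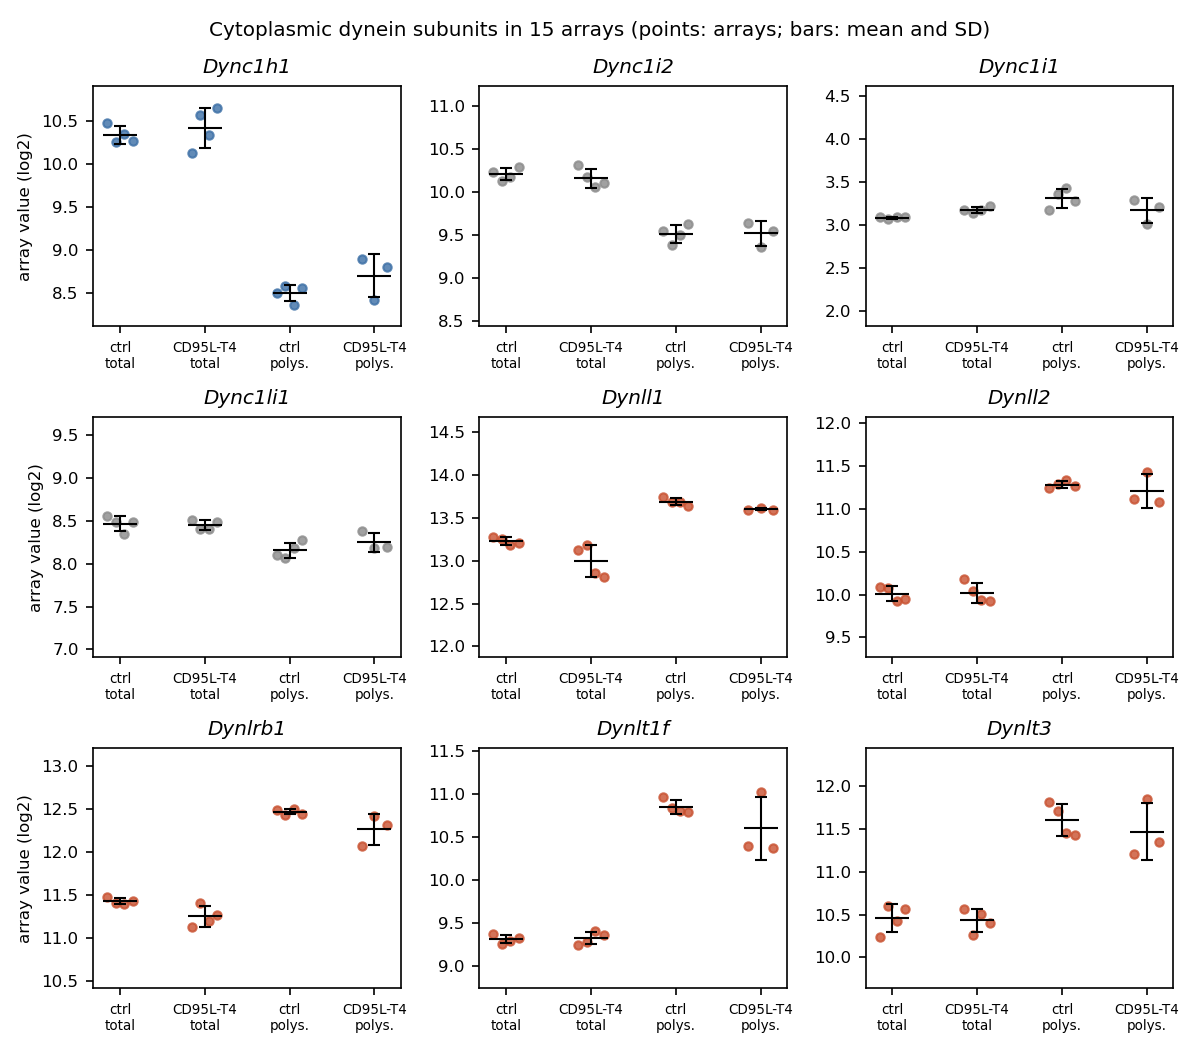
Array values (log2) of dynein subunits in the 4 groups of arrays; points are arrays, bars the group mean and SD, and each panel has its own level but the same span. Dync1h1 sits near 10.3 to 10.4 in total and 8.5 to 8.7 in polysomal RNA, whereas the light chains sit higher in polysomal RNA.

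The stretches of DNA just before the start sites of a light chain pair, the heavy chain and a mitotic kinesin are shown for reading their promoter letters side by side; they come from RefSeq on build GRCm38.p6, hold the 250 bases upstream of the annotated start and run 5′ to 3′ on the strand of the gene. Capitals mark a CCAAT box (CCAAT, or ATTGG on the other strand), a GC box (GGGCGG or CCGCCC) or a TATA box (TATAAA or TTTATA).
Dynll1, chr5:115300991-115301240, minus strand: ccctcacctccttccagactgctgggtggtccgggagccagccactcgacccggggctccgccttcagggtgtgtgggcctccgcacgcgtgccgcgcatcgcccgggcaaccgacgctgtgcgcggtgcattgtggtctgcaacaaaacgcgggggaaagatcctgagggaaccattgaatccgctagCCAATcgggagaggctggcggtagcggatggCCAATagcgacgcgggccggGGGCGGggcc
Dynlt3, chrX:9662984-9663233, minus strand: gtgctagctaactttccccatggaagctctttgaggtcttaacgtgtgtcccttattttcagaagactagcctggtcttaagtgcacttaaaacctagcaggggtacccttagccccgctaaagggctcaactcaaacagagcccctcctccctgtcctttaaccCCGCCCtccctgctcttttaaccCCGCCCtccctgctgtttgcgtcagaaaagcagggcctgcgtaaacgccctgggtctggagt
Dync1h1, chr12:110601145-110601394, plus strand: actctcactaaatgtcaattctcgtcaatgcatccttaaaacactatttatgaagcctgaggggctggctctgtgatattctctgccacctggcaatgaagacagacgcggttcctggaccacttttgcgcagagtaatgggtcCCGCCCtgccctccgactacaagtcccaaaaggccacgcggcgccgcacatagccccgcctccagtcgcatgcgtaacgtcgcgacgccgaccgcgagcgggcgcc
Kif11, chr19:37376132-37376381, plus strand: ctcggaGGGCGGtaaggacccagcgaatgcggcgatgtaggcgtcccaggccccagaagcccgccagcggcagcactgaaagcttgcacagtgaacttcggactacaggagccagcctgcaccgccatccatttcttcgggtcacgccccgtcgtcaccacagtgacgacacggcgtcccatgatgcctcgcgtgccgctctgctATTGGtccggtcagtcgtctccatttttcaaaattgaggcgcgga
The Dynll1 window held 2 CCAAT boxes and 1 GC box, and that of Dynlt3 held 2 GC boxes. That of Dync1h1 held 1 GC box, and that of Kif11 held 1 CCAAT box and 1 GC box. Windows were matched for 46 of the 56 motor genes. Motor genes were counted at the first listed start of each gene, and the whole set over every window listed. The shares are therefore not in like units. A GC box was found in 4 of 4 light chain windows, 1 of 3 middle chain windows and 24 of 39 large chain windows, against 32.7% of all 32851 windows. A CCAAT box was found in 1 of 4 light chain and 15 of 39 large chain windows, against 33.9% of all windows, and a TATA box in 0 and 4, against 12.4%. These are matches of letters and were not tested as binding sites.

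In control cultures all polysomal arrays lay below all total arrays for 59 of 108 motor probe sets, and above them for 16, where 26% and 28.6% of the array did. The large chains gave 57 lower and 5 higher of 95, the middle chains 2 lower and 1 higher of 3, and the light chains 10 higher of 10. In CD95L-T4 cultures the fractions were apart in this way for 52 motor probe sets on the lower and 16 on the higher side (22.8% and 24.9% of the array), among them 50 and 6 of large chains and 10 of 10 of light chains on the higher side. A difference of at least 2-fold was found in control cultures in 17 motor probe sets on the lower side, all of large chains, and in 6 on the higher side, all of light chains, against 6.39% and 4.57% of the array. In CD95L-T4 cultures these were 13 and 5, against 5.82% and 3.43%. The whole-table limma fit put 60 motor probe sets lower and 20 higher at an adjusted p under 0.05 in control cultures, where 56.1% of the array passed (26.3% lower and 29.8% higher). In CD95L-T4 cultures it put 56 lower and 15 higher, where 51.3% passed (24.6% and 26.7%). Since the family was picked on this contrast, those counts are no evidence about it.

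With 1 probe set per gene, the median difference was −0.22 for the 48 large chains and 1.14 for the 5 light chains in control cultures, beside 0.10 for all genes. In CD95L-T4 cultures the medians were −0.18, 1.03 and 0.07. Set against the mean of its culture's total arrays, each polysomal array gave a large chain median below 0 and a light chain median above 0. The large chain medians were −0.25, −0.25, −0.22 and −0.22 in the control arrays and −0.22, −0.25 and −0.11 in the CD95L-T4 arrays. The light chain medians were 1.23, 1.25, 1.07 and 1.02 in control and 0.82, 1.41 and 1.06 in CD95L-T4 arrays. The gap between the classes thus had the same order in all 7 polysomal arrays. The classes were picked on this difference, and the arrays of a culture share a baseline. The shared order is therefore a description and no independent support.

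The large chains were not alike among themselves. Of the 48, 25 had a mean level above the array's median of 6.92, and in these the median difference in control cultures was −0.56, with 22 of 25 below 0. The 23 dimmer large chains had a median of 0.09, and all genes above the median level one of 0.02. In CD95L-T4 cultures these medians were −0.44, 0.06 and 0.07. All 5 light chains and 2 of the 3 middle chains lay above the median level. The ranked plot of differences shows the heavy chain of dynein and Kif1b at one end and the light chains at the other, with Kifc1 among them.

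**Figure D2:**
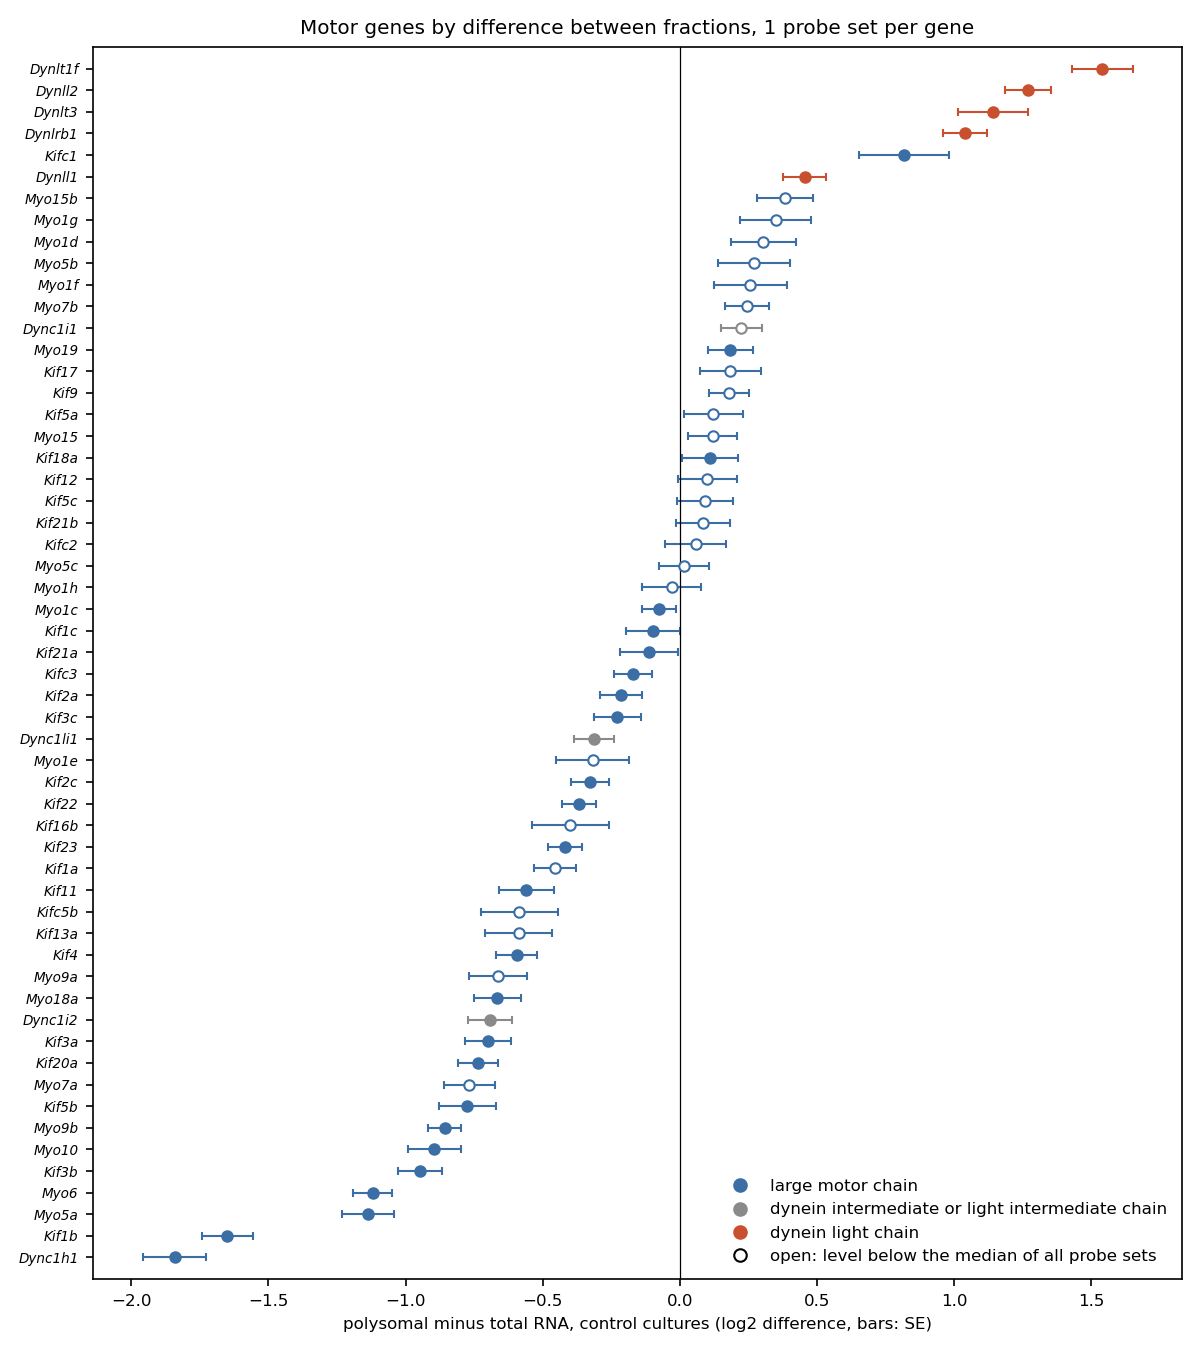
Difference of polysomal minus total RNA in control cultures (log2, bars are SE) for the 56 motor genes, 1 probe set each, ordered by value; colours mark the class and open points a level below the median of all probe sets. Dync1h1 (−1.84) and Kif1b (−1.65) lie at the low end and Dynlt1f (1.54) and Dynll2 (1.27) at the high end.

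Among kinesins that carry cargo, Kif1b, a carrier of mitochondria and synaptic vesicle precursors, had the widest gap. It read 10.34, 10.08, 10.13 and 10.17 in control total RNA and 8.5, 8.59, 8.48 and 8.55 in control polysomal RNA. CD95L-T4 arrays read 10.08, 10.27, 10.08 and 10.24 in total and 8.61, 8.40 and 8.88 in polysomal RNA, so every polysomal array was more than 1 log2 unit below every total array. The difference was −1.65 ± 0.09 (3.14-fold lower) in control and −1.54 ± 0.10 in CD95L-T4 cultures. Kif3a and Kif3b, the paired motor subunits of the kinesin that serves cilia, differed by −0.70 ± 0.08 and −0.95 ± 0.08 in control cultures. In CD95L-T4 cultures they differed by −0.64 ± 0.09 and −0.80 ± 0.09.

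Kif5b, the conventional kinesin heavy chain found in most cells, read 11.08, 10.93, 10.97 and 10.97 in control total and 10.24, 10.37, 10.06 and 10.18 in control polysomal RNA. The CD95L-T4 arrays read 10.94, 11.03, 10.56 and 10.70 in total and 10.22, 10.22 and 10.52 in polysomal RNA, which left little space between the fractions. Its difference was −0.78 ± 0.10 in control and −0.49 ± 0.11 in CD95L-T4 cultures. The neuronal paralogs Kif5a and Kif5c lay below the median level, as did Kif17 and Kif9, and their differences in control cultures were between 0.09 and 0.18. Over the 19 kinesins outside the mitotic group the median was −0.17 in control and −0.14 in CD95L-T4 cultures.

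The 9 mitotic kinesins had a median difference of −0.42 in control and −0.44 in CD95L-T4 cultures. Kif11, which slides antiparallel microtubules to push spindle poles apart, read 9.73, 9.58, 9.73 and 9.54 in control total and 9.23, 9.26, 8.91 and 8.94 in control polysomal RNA, a difference of −0.56 ± 0.10. Kif20a, needed for cytokinesis, read 9.96 to 10.02 in control total and 9.29, 9.33, 9.18 and 9.21 in control polysomal RNA, a difference of −0.74 ± 0.07. Both had fractions that did not overlap. Kif4, a kinesin that binds chromosome arms, differed by −0.60 ± 0.07, Kif23, a part of the central spindle, by −0.42 ± 0.06, and Kif2c, which takes microtubules apart at centromeres, by −0.33 ± 0.07.

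Kif18a, which aligns chromosomes, stood at 0.11 ± 0.10. The other mitotic kinesin above the median level with a difference above 0 was Kifc1, a motor that walks toward the minus end and gathers spindle poles. It read 7.32, 7.84, 6.83 and 6.92 in control total and 7.98, 7.90, 8.15 and 8.15 in control polysomal RNA. CD95L-T4 arrays read 7.21, 7.22, 6.99 and 7.31 in total and 8.12, 7.86 and 7.76 in polysomal RNA. The control fractions lay close, with 7.84 next to 7.90, and the difference was 0.82 ± 0.16 (1.76-fold higher) in control and 0.73 ± 0.18 in CD95L-T4 cultures. Its near-identical paralog Kifc5b, dimmer, differed by −0.58 ± 0.14 in control cultures, and how far the probe sets separate the pair is uncertain. Beside the mitotic kinesins, 4 of 4 measured markers of dividing cells (Mki67, Top2a, Cdk1 and Plk1) also had lower polysomal values in control cultures, with a median of −0.75; their part in the result was not tested.

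The 19 myosins had a median near 0, −0.03 in control cultures and 0.00 in CD95L-T4 cultures. The 7 above the median level had medians of −0.86 and −0.72. Myo5a, a carrier of vesicles and pigment granules, read 9.08, 9.01, 9.11 and 9.12 in control total and 8.01, 8.04, 7.75 and 7.97 in control polysomal RNA. In CD95L-T4 cultures it read 9.10, 9.14, 8.97 and 8.79 in total and 8.31, 7.99 and 8.27 in polysomal RNA. The fractions did not overlap in either culture, and the difference was −1.14 ± 0.09 (2.20-fold lower) in control and −0.81 ± 0.10 in CD95L-T4 cultures.

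Myo6, the myosin that walks toward the minus end of actin, read 9.95, 9.80, 9.95 and 9.92 in control total and 8.92, 8.81, 8.67 and 8.74 in control polysomal RNA. This is −1.12 ± 0.07, and −1.04 ± 0.08 in CD95L-T4 cultures. Myo10, found at the tips of filopodia, differed by −0.90 ± 0.10 and −0.60 ± 0.10, and Myo9b by −0.86 ± 0.06 and −0.95 ± 0.07. The mitochondrial myosin Myo19 was an exception, at 0.18 ± 0.08 and 0.20 ± 0.09. Among the dim myosins, Myo15b, Myo1d and Myo1g had differences of 0.38, 0.30 and 0.35 in control cultures, the last at array values from 3.5 to 4.27.

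**Figure D3:**
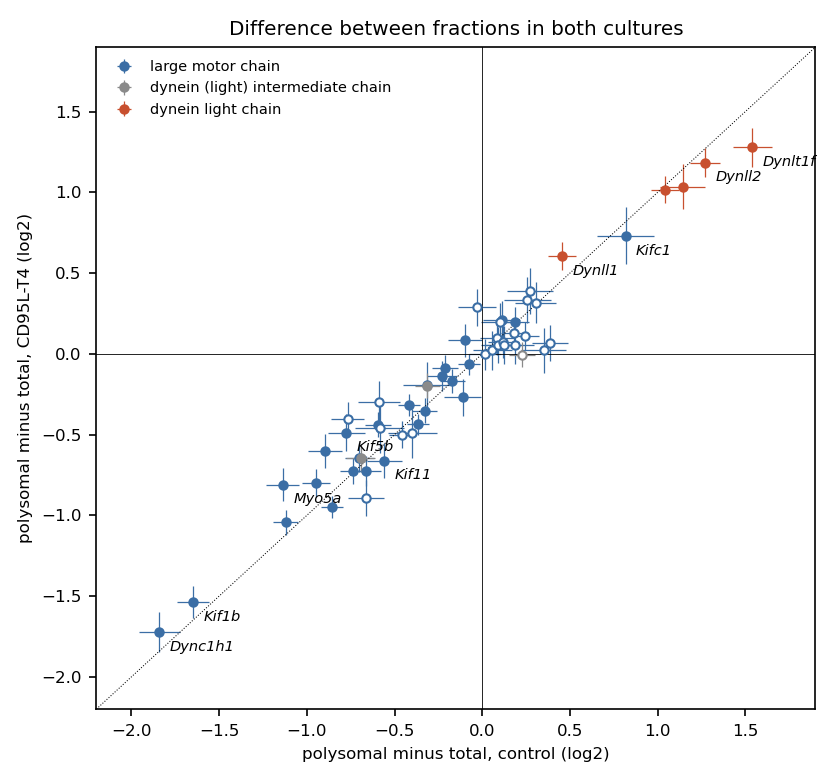
Difference of polysomal minus total RNA (log2, bars are SE) in CD95L-T4 cultures (vertical) against control cultures (horizontal) for the 56 motor genes; the dotted line marks equal differences and open points a level below the median. The 5 light chains lie at the upper right and Dync1h1, Kif1b, Myo5a and Myo6 at the lower left.

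Probe sets of the same gene did not always give the same difference. Of the 25 motor genes with several, 22 had 1 sign throughout in control cultures and 3 did not (Kif2c, Myo1c and Myo1e), and in 10 the values spanned more than 0.50. The 3 probe sets of Kif11 spanned −2.03 to −0.56, the 7 of Kif1b −1.65 to −0.60, the 4 of Kif2c −1.20 to 0.02, and the 3 of Myo10 −1.66 to −0.54. Myo1c, a myosin that tethers membranes to actin, was split: its 4 probe sets ran from −0.77 to 0.36. The light chains spanned little, 0.41 to 0.54 for the 3 of Dynll1, 1.09 to 1.27 for the 2 of Dynll2 and 0.93 to 1.14 for the 3 of Dynlt3.

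Partners of the motors that the name rule leaves out were read in the same way, and are likewise described without a test. Non-muscle myosin II is the contractile motor of dividing cells. Of its 3 heavy chains listed, 2 were measured, and Myh10 had no probe set of its own. The 2 measured had lower values on polysomes in control cultures, Myh9 at −1.20 ± 0.09 (2.29-fold) and Myh14 at −0.68 ± 0.09. Of the 5 myosin light chains, 4 had a difference above 0 and 1 one below 0; over all 12393 genes, 7640 lay above 0. Among these, Myl12b, a regulatory light chain, had a difference of 0.86 ± 0.07 and Myl12a one of 0.43 ± 0.08. Myl6, an essential light chain, had one of 0.38 ± 0.12 in control and 0.00 ± 0.13 in CD95L-T4 cultures, a gap that did not pass the test of the CD95L-T4 effect between fractions (limma adjusted p = 0.897), and Myl6b, the one below 0, was dim, with −0.35 ± 0.09.

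In dynactin, the activator of dynein, 4 of 7 measured subunits had a difference below 0 and 3 one above 0. Dctn1, the large subunit that binds dynein and microtubules, differed by −0.92 ± 0.08, and Dctn3, a small subunit of its shoulder, by 0.89 ± 0.08. Dctn5 and Dctn6, pointed end subunits, differed by 0.50 ± 0.07 and 0.84 ± 0.09, and Dctn2 and the filament subunit Actr1a by −0.28 ± 0.09 and −0.36 ± 0.07. Kifap3, the adaptor of the Kif3 motor, differed by −0.75 ± 0.07 and the kinesin light chain Klc1 by −0.24 ± 0.08, while Klc3 and Klc4 stood at 0.22 ± 0.11 and 0.06 ± 0.08. The dynein regulators Nde1, Ndel1 and Bicd2 stood at 0.28 ± 0.08, 0.46 ± 0.07 and 0.19 ± 0.11, and Pafah1b1 at −0.18 ± 0.11.

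**Figure D4:**
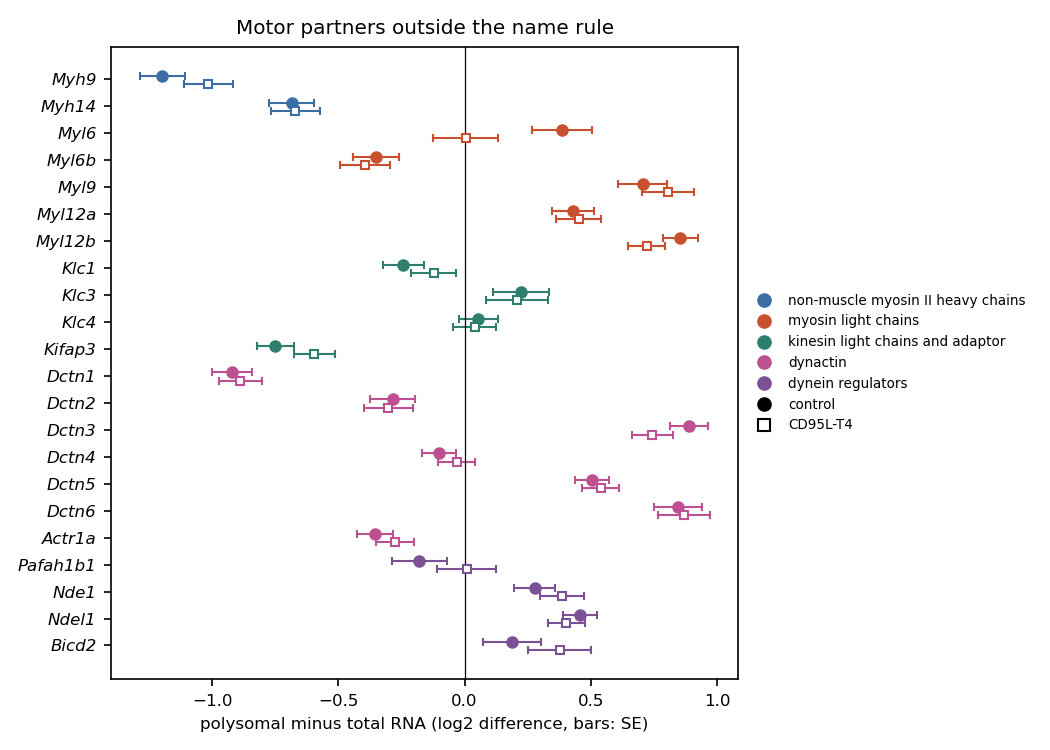
Difference of polysomal minus total RNA (log2, bars are SE) for motor partner genes outside the name rule; filled circles are control and open squares CD95L-T4 cultures, coloured by list. Myh9 and Dctn1 lie at the low end and Dctn3, Dctn6 and Myl12b at the high end.

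The study was designed around the response of these cells to CD95L-T4, and no motor probe set passed an adjusted p of 0.05 for it in either fraction. By limma over the whole table, 0 of 108 passed in total RNA and 0 of 108 in polysomal RNA, and 0% of the array passed in both. At an unadjusted p under 0.05, 3 motor probe sets passed in total RNA, against 3.74% of the array, and 10 in polysomal RNA, against 9.65%. The lowest adjusted p of a motor probe set by limma was 0.997 in total and 0.473 in polysomal RNA. A change of more than 1.5-fold either way fell outside the 95% interval for 107 of 108 motor probe sets in total RNA (99.1%, against 98.2% of the array) and for 105 of 108 in polysomal RNA (97.2%, against 95.9%).

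By class, the median effect in total RNA was 0.00 for the large and −0.03 for the small chains. On polysomes it was 0.04 for the large chains and −0.13 for the small ones, with 5 of 5 light chains below 0, as were 6095 of all 12393 genes, and none past the threshold. With 1 array left out, the light chain median ran from −0.28 (without the second CD95L-T4 polysomal array) to −0.085 (without the first or the third), and the large chain median from 0.0013 (without the third) to 0.082 (without the first). With 1 probe set per gene, the largest difference in total RNA was that of Dynll1, at −0.24 ± 0.08 (95% interval −0.41 to −0.07; limma adjusted p = 0.997). Its control arrays read 13.18 to 13.28 and its CD95L-T4 arrays 12.81 to 13.18, so the groups met at 13.18. The groups also overlapped on the other Dynll1 probe sets. These read 12.72, 12.69, 12.65 and 12.66 against 12.63, 12.67, 12.62 and 12.58, and 13.12, 13.11, 13.08 and 13.09 against 13.10, 13.11, 12.79 and 12.81. The next genes in order of p were Dynlrb1 (−0.18 ± 0.08), Kif5b (−0.18 ± 0.10) and Kif21a (0.18 ± 0.11).

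In polysomal RNA the largest difference was that of Myo7a, a myosin known from hair cells and retina, whose control arrays read 5.79, 6.07, 5.86 and 5.70 and CD95L-T4 arrays 6.25, 6.00 and 6.34. The groups overlapped, and the difference was 0.34 ± 0.10 (95% interval 0.13 to 0.55; limma adjusted p = 0.473). Myo10 read 7.80, 7.92, 7.81 and 7.80 against 7.93, 8.32 and 8.06, with no overlap, and differed by 0.27 ± 0.10 (limma adjusted p = 0.487). Without the second CD95L-T4 polysomal array this probe set differed by 0.16 ± 0.10. The groups overlapped on the other Myo10 probe sets. These read 7.65, 7.69, 7.5 and 7.71 against 7.74, 7.66 and 7.79, and 5.08, 5, 4.89 and 4.35 against 4.81, 5.18 and 4.43. Myo5a differed by 0.25 ± 0.10 and Kif4 by 0.18 ± 0.08, with limma adjusted p-values of 0.494 and 0.495. Control and CD95L-T4 arrays did not overlap for 5 motor probe sets on the higher and 4 on the lower side. The shares of the array were 2.59% and 2.83%. In total RNA the counts were 2 and 1, against 1.58% and 0.941%. The 5 on polysomes were all of large chains, which hold 95 of the 108 motor probe sets. Of the 4, 3 were of light chains, from Dynll1 and Dynlrb1 only. There the highest CD95L-T4 array lay just under the lowest control array. It read 13.61 next to 13.64 and 13.44 next to 13.45 for Dynll1, and 12.42 next to 12.44 for Dynlrb1. Whether the classes responded differently was not tested. For Dync1h1 the interval of the effect on polysomes was −0.06 to 0.47, for Dynlt1f −0.50 to 0.00 and for Dynll2 −0.27 to 0.12.

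**Figure D5:**
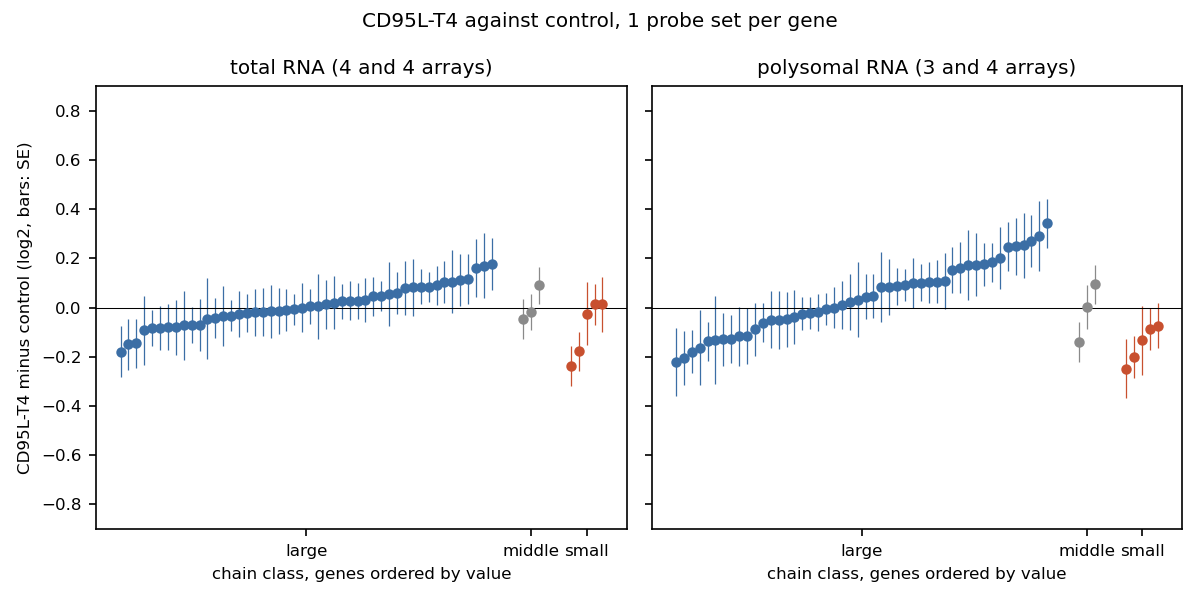
Difference of CD95L-T4 minus control (log2, bars are SE) for the 56 motor genes, 1 probe set each, by chain class, in total RNA and in polysomal RNA. All values lie between −0.25 and 0.34, and none passed an adjusted p of 0.05.

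Leaving out the second CD95L-T4 polysomal array, the one with the highest spiked controls, changed the count on polysomes. With the 2 arrays left, 3 motor probe sets (2.78%) passed by limma, where a larger share of the array, 6.13%, did (717 higher and 669 lower). No other fit with 1 array left out had any probe set of the array pass on polysomes. The calls thus depend on the choice of the array left out. Myo7a was higher, at 0.44 ± 0.10 (adjusted p = 0.0218), Dynlt1f lower, at −0.46 ± 0.08 (adjusted p = 0.0092), and 1 of the 3 probe sets of Dynlt3 lower, at −0.62 ± 0.17 (adjusted p = 0.0422). 

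Whether CD95L-T4 shifted motor mRNAs between the fractions was tested as the difference of its effect on polysomes from its effect in total RNA. No motor probe set passed by limma (0 of 108, where 0% of the array passed), 6 passed at an unadjusted p under 0.05 against 4.38% of the array, and the lowest adjusted p was 0.897. The genes with the smallest p were Myo7a at 0.37 ± 0.14, Myo5a at 0.33 ± 0.14, Dync1i1 at −0.23 ± 0.11 and Myo15b at −0.32 ± 0.15. For 83 of 108 motor probe sets the 95% interval left out a shift of more than 1.5-fold (76.9%, against 84.2% of the array).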

How the data were processed

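Affymetrix mouse arrays of 15 samples in 4 groups were analysed. The deposited values are the authors' log2 expression values with 2 decimals; the summary method and normalization are not given in the sources used here, and precision is set by the number of arrays in each group. Of 22690 probe sets, 64 array controls were left out. Genes were named from the platform annotation, which names 1 gene for 20380 probe sets, several for 691 and none for 1555 of those tested. All 56 member symbols were found by gene identifier in RefSeq (GRCm38.p6). Where a gene had several probe sets, the one brightest on average across the 15 arrays stood for it.

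A limma model (version 3.58.1, R 4.3.3) with 1 mean per group was fitted to all 22626 probe sets with moderated variances and Benjamini-Hochberg adjustment over all of them, and checked on simulated data. Genes named are all dyneins; the 6 kinesins and 4 myosins with the lowest and the 4 and 3 with the highest difference between fractions in control cultures; the 4 with the smallest p in each CD95L-T4 contrast; 10 kinesins and myosins and 8 partners listed beforehand; and genes whose probe sets passed the threshold in opposite directions. Of the 8 partners, Myh10 had no probe set of its own and has no values. Other genes named were chosen after their values were seen.

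The members and lists were chosen with earlier results of these data known. Replicate numbers were not taken to pair the samples: 7 of 21 correlations of deviations between arrays of the same number exceeded 0.1 (range −0.23 to 0.22), 4 of them being all the pairs of CD95L-T4 total with control polysomal RNA, groups that are not compared with each other. Protein sequences were not used here, so the planned comparison with protein length was not made. Alternatives covered scaling, filters on dim probe sets, array weights, the choice of probe set, a replicate block and leaving out each array.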

Additional observations from a re-analysis of the deposited data

Results flagged for a closer look

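In groups of 4 arrays, 117 sets of values of 39 named genes were examined for a single array far from the other 3, and 4 of them (3.42%) met the 95% critical value of Dixon's test; chance gives about 1 in 20. The ratio is the gap of that array to its nearest neighbour over the range of the group. Dync1i1 in control total RNA had a ratio of 1, with 3.07 in the second array and 3.09 in the others. Klc1 in control total RNA had a ratio of 0.889, with 8.69 in the second array against 8.77 to 8.78. Myo10 in control polysomal RNA had a ratio of 0.917, with 7.92 in the second array against 7.80 to 7.81. Myo9b in CD95L-T4 total RNA had a ratio of 1, with 9.23 in the second array and 9.26 in the others. Dync1i1 and Klc1 were flagged in the same array. No explanation was tested for these 4 sets of values, in which the flagged array lay 0.12 or less from the rest on the log2 scale.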

How the results depend on the processing

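The signs of the large chain and light chain medians between fractions were the same under every alternative run in both cultures, and their sizes moved. For the large chains in control cultures the median of −0.22 became −0.18 with quantile normalization over all arrays, −0.13 with equal array medians, −0.33 and −0.56 without the dimmest 25% and 50% of probe sets, −0.20 when a gene's probe sets were averaged, and −0.24 to −0.20 with 1 array left out. In CD95L-T4 cultures it went from −0.18 to −0.092 with equal array medians and to −0.30 and −0.44 without the dimmest 25% and 50%. Leaving out 1 array there gave −0.27 (without CD95L-T4 polysomal replicate 3) to −0.12 (without replicate 1). With 1 array left out the light chain median stayed at 1.07 to 1.20 in control and 0.94 to 1.16 in CD95L-T4 cultures. The count of 20 motor probe sets higher on polysomes in control cultures at an adjusted p under 0.05 was 13 without the dimmest 50%, where fewer are tested, and 9 when a difference of at least 0.50 was required. The median effect of CD95L-T4 on large chains in polysomal RNA was 0.092 without the dimmest 50%, and that on light chains in total RNA −0.049 with array weights, −0.079 with averaged probe sets and −0.10 to 0.0067 with 1 array left out. Leaving out 1 array gave 0 to 3 motor probe sets called for CD95L-T4 on polysomes, 3 only without CD95L-T4 polysomal replicate 2. Signs reversed for small differences between fractions: Myo1c at 0.018 in control and 0.025 in CD95L-T4 cultures with equal array medians, Kif17 in CD95L-T4 cultures at −0.03 without CD95L-T4 total replicate 1 (range −0.03 to 0.16 with 1 array left out), and Kif5a there at −0.053 without CD95L-T4 total replicate 2 (range −0.053 to 0.12) and −0.039 with averaged probe sets. Apart from the settings whose construction is stated, the cause was not tested. Of the alternatives for single named genes, with calls between fractions among them, 2126 gave the same call, 73 lost it, 9 gained it and 5 reversed. With replicate number as a block the counts between fractions were 59 lower and 19 higher in control and 54 lower and 16 higher in CD95L-T4 cultures, 0 motor probe sets were called for CD95L-T4 in any contrast, and the large chain medians were −0.22 and −0.16. Since the family was picked on the difference between fractions, the stability of counts and calls between fractions is no evidence about it. The comparison with protein length was not run.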

Other observations

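A set of 3 further probe sets outside the name rule reports several near-identical copies of the Tctex-type light chain gene Dynlt1 at once, and was read beside Dynlt1f. The brightest, annotated to 4 copies, read 13.06, 13.06, 13.03 and 13.11 in control total RNA and 13.50, 13.47, 13.36 and 13.43 in control polysomal RNA, a difference of 0.38 ± 0.07 (SE, log2). The second, also annotated to 4 copies, read 12.81, 12.74, 12.77 and 12.84 against 13.41, 13.34, 13.28 and 13.33, a difference of 0.55 ± 0.06. The third, annotated to 3 copies and dim, read 5.93, 6.08, 5.55 and 5.81 against 6.48, 6.20, 6.29 and 6.65, a difference of 0.56 ± 0.11. All 3 were higher on polysomes, as was Dynlt1f, by less than the 1.54 of Dynlt1f. In CD95L-T4 cultures their differences were 0.30, 0.45 and 0.33. As with Dynlt1f, the second CD95L-T4 polysomal array of each read above the first and the third, with 13.46 against 13.28 and 13.30 for the brightest.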
